A study of Mus musculus with 5 samples.

Results

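Transcripts of 8 genes of the major histocompatibility complex (MHC) class II pathway were measured in sorted mouse spleen cells. The genes were chosen by symbol as H2-Aa, H2-Ab1, H2-Eb1, H2-DMa, H2-DMb1, H2-Ob, Cd74 and Ciita. They are 8 of the 35275 genes in the deposited table, and all 8 passed the filter on low values. The cells were a CD8 Treg population (1 library), a CD4 Treg population (2 libraries) and a population the labels call CD49lo (2 libraries). All came from wild-type C57BL/6 mice aged 3 months, and no treatment or engineered allele is named. In every group, spleen lymphocytes were enriched for CD8 cells before staining and flow cytometric sorting, and the staining markers are not given. The title and design text of the series name CD8+ cells of an effector type as the third population, so CD49lo is taken for that population by elimination.

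The libraries held 5441444 to 8354971 reads in genes, and 3 reads, the limit that a count of 0 allows, came to 0.359 to 0.551 RPM (reads scaled to library depth alone). Each CD8 Treg value rests on a single library. Nothing in the labels ties the replicates to different animals, and the p-values therefore measure the variation among these libraries only, some or all of which may be technical. Of 9 T cell genes, 3 were higher and 2 lower in CD4 Treg than in CD49lo at an adjusted p below 0.05. In CD8 Treg, 2 were higher and 4 lower than in CD4 Treg. Between CD8 Treg and CD49lo, 1 was lower in CD8 Treg, 0 were higher and 8 did not pass. The list thus gave little basis for telling CD8 Treg from CD49lo, and Foxp3 was low in both. Foxp3, the transcription factor of CD4 regulatory T cells, stood at 0.387 RPKM (reads divided by gene length and by library depth) in CD8 Treg, 146 and 146 RPKM in CD4 Treg, and 1.66 and 0.795 RPKM in CD49lo. Cd8a stood at 187 RPKM in CD8 Treg, 0.412 and 0.352 RPKM in CD4 Treg, and 215 and 255 RPKM in CD49lo. Xist, transcribed from the inactive X chromosome, was at 0.0834 RPKM in CD8 Treg, 35.5 and 27.2 RPKM in CD4 Treg, and 0.0269 and 0 RPKM in CD49lo. Ddx3y, a gene of the Y chromosome, was at 18.3 RPKM in CD8 Treg, 0.0701 and 0 RPKM in CD4 Treg, and 18.3 and 27.4 RPKM in CD49lo. The labels give no sex, but by these 2 transcripts CD4 Treg had a female pattern and CD8 Treg and CD49lo a male pattern. Sex and CD4 Treg identity therefore cannot be told apart in any comparison with CD4 Treg.

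Class II molecules display peptides from endosomes to the receptors of CD4 T cells. Each is a pair of an alpha and a beta chain that assembles in the endoplasmic reticulum on the invariant chain, which Cd74 encodes and which is later cut away in endosomes. The peptide exchange factor H2-DM then loads peptide, and H2-DO restrains H2-DM. CIITA, encoded by Ciita, is the transactivator of the pathway. It does not bind DNA itself but is held at class II promoters by RFX, CREB and NF-Y proteins bound to the W, X and Y boxes. In mice the pathway is active mainly in B cells, dendritic cells, macrophages and thymic epithelium, and resting mouse T cells are known for low or absent surface class II.

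The Y box carries the letters TGATTGG, and the X box region lies upstream of it. Of the 8 genes, 5 (H2-Aa, H2-Eb1, H2-DMa, H2-DMb1 and H2-Ob) matched the RefSeq promoter windows of build GRCm38.p6, which run from 250 bases before to 50 after a listed start. H2-Ab1, Cd74 and Ciita were not matched. The stretches below show the arrangement in genes that behaved differently in the libraries, with matches to AACNNNTGA and TGATTGG in capitals. Letters and spacing were chosen after the sequences had been seen, both strands were searched, and the 2 motifs share no letters where both occur. H2-DMb2 is the neighbouring copy of H2-DMb1. H2-Aa lies at chr17:34287854-34287953 (minus strand), H2-Eb1 at chr17:34305737-34305836, H2-Ob at chr17:34238775-34238874, H2-DMb1 at chr17:34153096-34153125 and H2-DMb2 at chr17:34145119-34145218 (plus strand).
H2-Aa: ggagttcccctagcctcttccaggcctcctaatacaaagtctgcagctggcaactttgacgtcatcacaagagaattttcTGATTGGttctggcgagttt
H2-Eb1: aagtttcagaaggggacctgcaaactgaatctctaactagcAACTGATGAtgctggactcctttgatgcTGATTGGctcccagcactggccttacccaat
H2-Ob: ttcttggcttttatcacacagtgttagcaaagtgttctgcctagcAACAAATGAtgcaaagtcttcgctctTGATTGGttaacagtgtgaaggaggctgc
H2-DMb1: agtAACTGATGAtgctaggctgattcactc
H2-DMb2: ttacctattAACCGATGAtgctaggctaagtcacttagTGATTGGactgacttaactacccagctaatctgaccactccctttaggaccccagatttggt

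The TGATTGG match began 50 bases before the listed start in H2-Aa, 61 in H2-Eb1, 63 in H2-DMb1 (beyond the stretch printed), 59 in H2-Ob and 92 in H2-DMb2. Of 32851 mouse promoter windows of 300 bases, 7.82% hold TGATTGG and 11.9% hold AACNNNTGA. AACNNNTGA followed 10 to 30 bases later by TGATTGG occurred in 21 windows (0.0639%), carrying 20 symbols. H2-Eb1, H2-DMb1, H2-DMb2 and H2-Ob were 4 of the 20. The looser GNAAC followed 20 to 35 bases later by TGATTGG occurred in 0.426% of windows and was present in H2-Aa, H2-Eb1, H2-DMb1 and H2-Ob. The 2 windows listed for H2-DMa held neither TGATTGG nor AACNNNTGA. Both lie upstream of the start that the deposited table gives for this gene. The paired letters were thus present both in H2-Eb1, whose transcript differed many fold between the groups, and in H2-Ob, whose transcript did not pass the test in any comparison.

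The 8 transcripts fell into 2 patterns. Ciita, Cd74, H2-DMb1 and the 3 classical chains H2-Aa, H2-Ab1 and H2-Eb1 stood highest in CD49lo, lower in CD8 Treg and far lower in CD4 Treg. H2-DMa and H2-Ob stood within about the same range in CD8 Treg and CD4 Treg and below both CD49lo libraries by less than 2-fold. Their differences did not pass the test. The plot of levels by library shows both patterns.

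**Figure D1:**
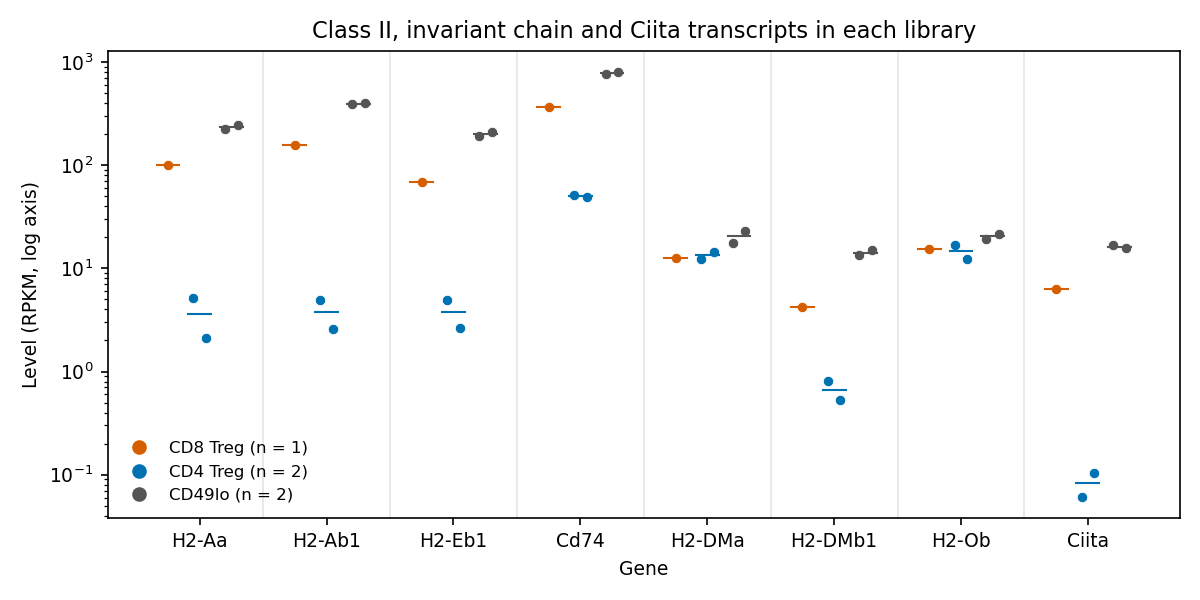
Level of each of the 8 transcripts in RPKM (log axis) in each library, with CD8 Treg (n = 1), CD4 Treg (n = 2) and CD49lo (n = 2) from left to right; points are libraries and short lines are group means. For 6 genes the CD4 Treg points lie far below the others, from 0.0614 RPKM (Ciita) to 51.6 RPKM (Cd74), whereas H2-DMa and H2-Ob lie between 12.3 and 23.2 RPKM in every library.

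Genes are termed called when the adjusted p is below 0.05, from limma on log2(scaled RPKM + 0.5) with Benjamini-Hochberg adjustment over the 13298 genes tested. In CD4 Treg against CD49lo, 6 of the 8 genes were called, all lower in CD4 Treg, where 12.8% of all tested genes were called lower, 9.45% higher and 22.3% in either direction. The median log2 fold change was -4.36 over the 8 genes and -0.03 over all genes. Between CD8 Treg and CD49lo, 3 of 8 were called (H2-Ab1, H2-Eb1 and Cd74), all lower in CD8 Treg, where 3.59% of all genes were called lower, 1.71% higher and 5.30% in either direction. The medians were -1.14 over the 8 genes and -0.04 over all genes. Setting CD8 Treg against CD4 Treg, 6 of 8 were called, all higher in CD8 Treg, where 8.51% of all genes were called higher, 8.35% lower and 16.9% in either direction. The medians there were 3.30 and 0.02. The 3 comparisons share libraries, so their counts are not independent of each other.

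These counts rested on both CD49lo libraries. With either CD49lo replicate 1 or CD49lo replicate 2 left out, 2 of the 8 genes (Cd74 and Ciita) were called in CD4 Treg against CD49lo, 0 in CD8 Treg against CD49lo and 1 (Cd74) in CD8 Treg against CD4 Treg. In those fits the spread comes from the CD4 Treg pair alone, with 1 residual degree of freedom against 2. The fold changes moved little: that of H2-Ab1 in CD4 Treg against CD49lo was -6.55 when replicate 1 of CD49lo was left out and -6.56 when replicate 2 was. The 3 calls in CD8 Treg against CD49lo also changed with other settings, as H2-Ab1 kept its call in 5 of 12 alternatives, H2-Eb1 in 7 and Cd74 in 10. The sign stayed negative for all 8 genes in those 12 alternatives. Without a scaling factor the median of all genes in this comparison moved to -0.16, and the share of called genes that were higher was 20.6%, against 32.3% with scaling. That share was 85.2% without a filter, 50.8% by limma-voom and 50.7% with a filter of 1 RPKM, so the majority of lower calls in this comparison depends on the setting. The same 3-gene count was obtained without scaling.

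**Figure D2:**
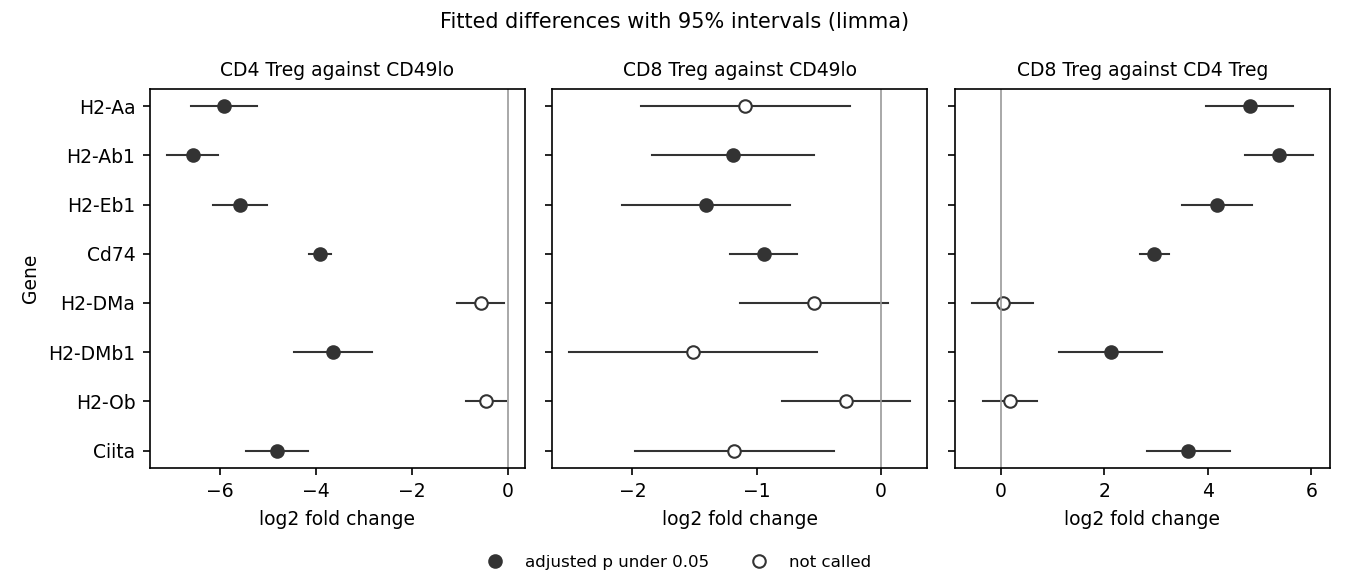
Log2 fold change of each gene with its 95% interval from limma for 3 comparisons, CD4 Treg over CD49lo (left), CD8 Treg over CD49lo (middle) and CD8 Treg over CD4 Treg (right); filled points have an adjusted p under 0.05 and each panel has its own horizontal scale. The intervals of H2-DMa and H2-Ob in CD4 Treg against CD49lo end below 0 at -0.08 and -0.03, far from the interval of H2-Ab1, -7.10 to -6.03.

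Ciita (ENSMUSG00000022504, mm10 chromosome 16, 10488178 to 10527564, plus strand), which encodes the transactivator, was read 199 times in CD8 Treg, 2 and 3 times in CD4 Treg, and 735 and 539 times in CD49lo. Its level was 6.24 RPKM in CD8 Treg, 0.0614 and 0.105 RPKM in CD4 Treg, and 16.7 and 15.6 RPKM in CD49lo. CD4 Treg was thus at the limit of detection, and CD8 Treg stood between CD4 Treg and CD49lo. Reads per depth were 199-fold lower in CD4 Treg than in CD49lo (95% exact interval 85.0 to 614) and 76.3-fold higher in CD8 Treg than in CD4 Treg (32.2 to 238). These intervals and all other intervals on reads cover counting error only. The fitted log2 fold changes, -4.80 ± 0.29 (SE, adjusted p = 6.52e-06) for the first of these pairs and 3.62 ± 0.36 (adjusted p = 0.000173) for the second, are smaller because 0.5 RPKM is added before the logarithm. CD8 Treg against CD49lo gave -1.18 ± 0.36 (adjusted p = 0.10). Ciita shares 25034 bases with Dexi on the opposite strand, and the sources used here do not say whether counting used strand. Dexi was at 5.26 RPKM in CD8 Treg, 4.38 and 4.27 RPKM in CD4 Treg, and 6.46 and 4.38 RPKM in CD49lo. The table's gene model for Ciita begins 8119 bases downstream of the start in GENCODE M21, so reads of more upstream first exons would not be counted there.

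Of the 7 genes for RFX, CREB1 and NF-Y subunits, the DNA-binding partners of CIITA, 1 was higher and 0 lower in CD4 Treg than in CD49lo, 0 were called between CD8 Treg and CD49lo, and 1 was lower in CD8 Treg than in CD4 Treg. Over all tested genes 22.3%, 5.30% and 16.9% were called in these comparisons. Nfya, the NF-Y subunit higher in CD4 Treg, was at 21.1 RPKM in CD8 Treg, 28.1 and 24.6 RPKM in CD4 Treg, and 18.1 and 21.0 RPKM in CD49lo (log2 fold change over CD49lo 0.45 ± 0.14, adjusted p = 0.0475). Nfyb, another subunit, was lower in CD8 Treg than in CD4 Treg (-0.57 ± 0.16, adjusted p = 0.0376). The fold changes of these 7 genes over CD49lo lay between 0.02 and 0.45 on the log2 scale in CD4 Treg and between -0.37 and 0.25 in CD8 Treg.

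Genes known to act on Ciita transcription went both ways. Of 11 such genes, 2 were higher and 2 lower in CD4 Treg than in CD49lo. Spi1, encoding the myeloid and B cell factor PU.1, was at 9.31 RPKM in CD8 Treg, 0.0793 and 0.452 RPKM in CD4 Treg, and 21.4 and 17.9 RPKM in CD49lo (-4.72 ± 0.38 for CD4 Treg against CD49lo, adjusted p = 3.07e-05). Irf8, an interferon regulatory factor of the same lineages, was at 13.6 RPKM in CD8 Treg, 6.18 and 7.73 RPKM in CD4 Treg, and 38.4 and 40.9 RPKM in CD49lo (-2.41 ± 0.16, adjusted p = 1.07e-05). Both therefore had the same order of groups as Ciita. The interferon-gamma receptor genes did not follow that order. Ifngr2, one receptor chain, was at 2.58 RPKM in CD8 Treg, 17.2 and 16.2 RPKM in CD4 Treg, and 7.36 and 6.13 RPKM in CD49lo. It was higher in CD4 Treg than in CD49lo (1.28 ± 0.20, adjusted p = 0.00158) and lower in CD8 Treg than in CD49lo (-1.11 ± 0.25, adjusted p = 0.0331). Ifngr1, the other chain, was at 173 RPKM in CD8 Treg, 179.5 and 175 RPKM in CD4 Treg, and 109 and 145 RPKM in CD49lo (0.52 ± 0.13 for CD4 Treg against CD49lo, adjusted p = 0.0197). In CD8 Treg against CD49lo, 4 of the 11 were lower and 0 higher, and in CD8 Treg against CD4 Treg 3 were higher and 3 lower. Over all tested genes 5.30% and 16.9% were called in these comparisons, and 22.3% in CD4 Treg against CD49lo.

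Each classical chain had a fitted log2 fold change beyond -5 in CD4 Treg against CD49lo. How they rank against Ciita depends on the value added: with 0.1 RPKM added Ciita gave -6.45, between -6.72 for H2-Ab1 and -6.07 for H2-Aa, and by limma-voom it gave -7.38, beyond -6.70 for H2-Ab1. H2-Ab1 (ENSMUSG00000073421, chromosome 17, 34263209 to 34269418), the beta chain of H2-A, was at 157 RPKM in CD8 Treg, 4.93 and 2.58 RPKM in CD4 Treg, and 389 and 398 RPKM in CD49lo. The log2 fold change was -6.56 ± 0.24 (adjusted p = 3.83e-07) for CD4 Treg against CD49lo, -1.19 ± 0.29 (adjusted p = 0.0491) for CD8 Treg against CD49lo and 5.37 ± 0.29 (adjusted p = 6.64e-06) for CD8 Treg against CD4 Treg. H2-Ab1 was low in both CD4 Treg libraries but not absent, with 37 and 17 reads there against 1154 in CD8 Treg and 3936 and 3164 in CD49lo.

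H2-Aa (ENSMUSG00000036594, chromosome 17, 34282744 to 34287827, minus strand), the alpha chain of the same pair, was at 99.5 RPKM in CD8 Treg, 5.13 and 2.11 RPKM in CD4 Treg, and 223 and 244 RPKM in CD49lo. It was lower in CD4 Treg than in CD49lo (-5.90 ± 0.31, adjusted p = 2.93e-06), and CD8 Treg against CD49lo gave -1.09 ± 0.37 (adjusted p = 0.146). CD8 Treg held more of it than CD4 Treg (4.81 ± 0.37, adjusted p = 4.89e-05). H2-Eb1 (ENSMUSG00000060586, chromosome 17, 34305877 to 34316199), the beta chain of H2-E, was at 68.4 RPKM in CD8 Treg, 4.90 and 2.64 RPKM in CD4 Treg, and 193 and 207 RPKM in CD49lo. Against CD49lo it was lower both in CD4 Treg, by -5.58 ± 0.25 (adjusted p = 1.28e-06), and in CD8 Treg, by -1.41 ± 0.30 (adjusted p = 0.0293), and it was higher in CD8 Treg than in CD4 Treg (4.17 ± 0.30, adjusted p = 3.47e-05). For each of the 3 chains the CD8 Treg library stood between CD4 Treg and CD49lo. C57BL/6 mice carry a defective H2-E alpha gene and make no H2-E at the surface. Its entry in the table, H2-Ea-ps, had 0 reads in all 5 libraries.

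Among the chains themselves, the ratios in CD4 Treg differed from those in the other libraries. H2-Eb1 per H2-Ab1 (RPKM per RPKM) was 0.436 in CD8 Treg, 0.995 and 1.02 in CD4 Treg, and 0.497 and 0.519 in CD49lo. H2-Aa per H2-Ab1 was 0.634 in CD8 Treg, 1.04 and 0.818 in CD4 Treg, and 0.573 and 0.612 in CD49lo. In CD4 Treg these ratios rest on 13 to 37 reads per gene and library. With 2 libraries against 2, an exact two-sided permutation test of a single ratio cannot go below p = 0.333, so no test is given for ratios.

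Cd74 (ENSMUSG00000024610, chromosome 18, 60803848 to 60812646), encoding the invariant chain, was the highest of the 8 transcripts per length in every library. It was at 369 RPKM in CD8 Treg, 51.6 and 49.4 RPKM in CD4 Treg, and 763 and 797 RPKM in CD49lo. CD4 Treg still held 451 and 379 reads of it, and its replicates differed less than those of any classical chain. Cd74 was lower in CD8 Treg than in CD49lo (-0.94 ± 0.12, adjusted p = 0.00289) and higher in CD8 Treg than in CD4 Treg (2.97 ± 0.12, adjusted p = 1.84e-06). Its difference between CD4 Treg and CD49lo (95% interval -4.13 to -3.69) lay closer to 0 than those of H2-Aa, H2-Ab1 and H2-Eb1, whose intervals together span -7.10 to -5.02. Cd74 over the summed classical chains was 1.14 in CD8 Treg, 3.45 and 6.74 in CD4 Treg, and 0.948 and 0.939 in CD49lo. CD4 Treg thus held several times more Cd74 per classical chain transcript than the other libraries.

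CD74 is also a surface receptor for the cytokine MIF, acting with CD44 and CXCR4. Of 4 genes for its ligands and partners, 1 was higher and 0 lower in CD4 Treg than in CD49lo. Cxcr4 was at 40.8 RPKM in CD8 Treg, 67.6 and 104 RPKM in CD4 Treg, and 24.9 and 25.4 RPKM in CD49lo (1.75 ± 0.19 for CD4 Treg against CD49lo, adjusted p = 0.000194). None of the 4 was called in CD8 Treg against CD49lo by limma, with adjusted p between 0.0844 and 0.256. Cd44 was higher (0.77 ± 0.14, adjusted p = 0.00586) and Cxcr4 lower (-0.93 ± 0.23, adjusted p = 0.0253) in CD8 Treg than in CD4 Treg. Mif gave -0.01 ± 0.22 (adjusted p = 0.982) and its homologue Ddt -0.38 ± 0.43 (adjusted p = 0.584) in CD4 Treg against CD49lo. Across all tested genes 22.3% were called in that comparison, 5.30% in CD8 Treg against CD49lo and 16.9% in CD8 Treg against CD4 Treg.

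The 2 chains of H2-DM did not move together. H2-DMa (ENSMUSG00000037649, chromosome 17, 34135182 to 34139101), its alpha chain, was at 12.6 RPKM in CD8 Treg, 12.3 and 14.3 RPKM in CD4 Treg, and 17.7 and 23.2 RPKM in CD49lo. CD8 Treg lay inside the CD4 Treg range and below both CD49lo libraries. The log2 fold change was -0.57 (95% interval -1.05 to -0.08, adjusted p = 0.0957) in CD4 Treg against CD49lo, -0.54 (-1.13 to 0.06, adjusted p = 0.316) in CD8 Treg against CD49lo and 0.03 (-0.56 to 0.63, adjusted p = 0.962) in CD8 Treg against CD4 Treg. H2-DMb1 (ENSMUSG00000079547, chromosome 17, 34153072 to 34160230), a beta chain, was at 4.22 RPKM in CD8 Treg, 0.804 and 0.524 RPKM in CD4 Treg, and 13.4 and 15 RPKM in CD49lo. It was lower in CD4 Treg than in CD49lo (-3.64 ± 0.36, adjusted p = 0.000112) and higher in CD8 Treg than in CD4 Treg (2.12 ± 0.44, adjusted p = 0.0103). H2-DMb1 kept the second call in 6 of 12 alternatives, with adjusted p between 0.0122 and 0.111, and it rests on 7 and 4 reads in CD4 Treg. The table's model of H2-DMa begins 15641 bases downstream of the GENCODE M21 start.

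H2-DMb2, the other beta chain, is a close copy of H2-DMb1, and how the authors' counting split reads between the copies is not known. It was at 10.3 RPKM in CD8 Treg, 1.96 and 0.991 RPKM in CD4 Treg, and 33.9 and 28.8 RPKM in CD49lo, with log2 fold changes of -4.02 ± 0.32 (adjusted p = 3.33e-05) for CD4 Treg against CD49lo and 2.60 ± 0.40 (adjusted p = 0.00205) for CD8 Treg against CD4 Treg. H2-DMb2 per H2-DMb1 was 2.45 in CD8 Treg, 2.43 and 1.89 in CD4 Treg, and 2.53 and 1.92 in CD49lo. Both copies thus had the same order of groups, and their ratio varied as much within a group as between groups.

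H2-Ob (ENSMUSG00000041538, chromosome 17, 34238903 to 34245907), the beta chain of H2-DO, was at 15.2 RPKM in CD8 Treg, 16.8 and 12.4 RPKM in CD4 Treg, and 19.0 and 21.7 RPKM in CD49lo. CD8 Treg lay inside the CD4 Treg range, and both groups lay below CD49lo. The log2 fold change was -0.45 (95% interval -0.87 to -0.03, adjusted p = 0.122) in CD4 Treg against CD49lo, -0.28 (-0.79 to 0.24, adjusted p = 0.575) in CD8 Treg against CD49lo and 0.18 (-0.34 to 0.69, adjusted p = 0.666) in CD8 Treg against CD4 Treg. Its partner H2-Oa, the alpha chain of H2-DO, was at 9.50 RPKM in CD8 Treg, 7.86 and 8.66 RPKM in CD4 Treg, and 21.3 and 17.6 RPKM in CD49lo. H2-Oa was lower in CD4 Treg than in CD49lo (-1.16 ± 0.25, adjusted p = 0.00923). The fold change of H2-Oa was -0.86 ± 0.31 (adjusted p = 0.16) in CD8 Treg against CD49lo. In CD4 Treg, H2-DMa and H2-Ob each exceeded every classical chain per length, while in the CD8 Treg and CD49lo libraries every classical chain exceeded both.

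H2-Eb2, a second E beta gene, was at 4.17 RPKM in CD8 Treg, 0.073 and 0.333 RPKM in CD4 Treg, and 3.36 and 5.38 RPKM in CD49lo. It was lower in CD4 Treg than in CD49lo (-2.76 ± 0.43, adjusted p = 0.00159) and higher in CD8 Treg than in CD4 Treg (2.85 ± 0.53, adjusted p = 0.00582). With it, all 3 tested genes of the other class II list (H2-Oa, H2-DMb2 and H2-Eb2) were lower in CD4 Treg than in CD49lo, 2 were higher in CD8 Treg than in CD4 Treg, and 0 were called in CD8 Treg against CD49lo by limma (adjusted p from 0.0788 to 0.952). In the same order of comparisons, 22.3%, 16.9% and 5.30% of all tested genes were called.

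Genes that process the invariant chain and antigen, or that set class II turnover, were mixed. Of 10 such genes, 2 were higher and 6 lower in CD4 Treg than in CD49lo, 0 higher and 1 lower in CD8 Treg than in CD49lo, and 3 higher and 2 lower in CD8 Treg than in CD4 Treg. The shares called over all tested genes were 22.3%, 5.30% and 16.9% in these comparisons. Marchf1, a ubiquitin ligase that removes surface class II, was at 3.11 RPKM in CD8 Treg, 0.0772 and 0.044 RPKM in CD4 Treg, and 5.39 and 6.82 RPKM in CD49lo (-3.52 ± 0.37 for CD4 Treg against CD49lo, adjusted p = 0.000161). Ifi30, a thiol reductase of endosomes, was at 38.1 RPKM in CD8 Treg, 15.5 and 10.3 RPKM in CD4 Treg, and 55.9 and 58.3 RPKM in CD49lo (-2.11 ± 0.23, adjusted p = 0.000173). Ctsd, an endosomal protease, was also lower in CD4 Treg than in CD49lo (-1.45 ± 0.11, adjusted p = 1.85e-05).

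Cd83 and Ctss went against the rest of that list. Cd83, which stabilizes surface class II and is also expressed by activated T cells, was at 8.53 RPKM in CD8 Treg, 51.1 and 52.7 RPKM in CD4 Treg, and 15 and 18.8 RPKM in CD49lo. It was higher in CD4 Treg than in CD49lo (1.62 ± 0.16, adjusted p = 0.000114) and was the gene lower in CD8 Treg than in CD49lo (-0.81 ± 0.20, adjusted p = 0.0498). Ctss, the protease that trims the invariant chain in B cells and dendritic cells, was at 187 RPKM in CD8 Treg, 354 and 387 RPKM in CD4 Treg, and 251 and 297 RPKM in CD49lo (0.47 ± 0.11 for CD4 Treg against CD49lo, adjusted p = 0.0141).

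Sums of transcripts that mark cells which present antigen were lowest in CD4 Treg, as were the 6 called genes. In CD8 Treg against CD49lo the median log2 fold change was -0.954 over B cell, -1.849 over dendritic cell and -0.035 over myeloid genes. Cebpa of the myeloid list went the other way, at 0.75 RPKM in CD8 Treg, 4.9 and 9.77 RPKM in CD4 Treg, and 3.68 and 2.31 RPKM in CD49lo. The 16 B cell marker genes without immunoglobulin genes summed to 118 RPKM in CD8 Treg, 18.4 and 20.2 RPKM in CD4 Treg, and 213 and 274 RPKM in CD49lo. The 17 monocyte, macrophage and neutrophil markers summed to 401 RPKM in CD8 Treg, 38.8 and 20.2 RPKM in CD4 Treg, and 669 and 628 RPKM in CD49lo. The 11 dendritic cell markers summed to 85.6 RPKM in CD8 Treg, 80.7 and 68.7 RPKM in CD4 Treg, and 179.5 and 232 RPKM in CD49lo. Cst3, which is expressed by many cell types, made up most of that sum in every library. It was at 74.5 RPKM in CD8 Treg, 79.9 and 68.0 RPKM in CD4 Treg, and 125 and 175 RPKM in CD49lo. The other 10 dendritic cell markers summed to 11.1 RPKM in CD8 Treg, 0.865 and 0.778 RPKM in CD4 Treg, and 54.4 and 57.3 RPKM in CD49lo. The 8 class II pathway genes summed to 733 RPKM in CD8 Treg, 96.5 and 84.0 RPKM in CD4 Treg, and 1636 and 1721 RPKM in CD49lo. The class II sum thus had the same order of groups as the B cell, myeloid and dendritic cell sums. Few genes carried the myeloid step from CD8 Treg to CD49lo. Lyz2 alone was at 70.8 RPKM in CD8 Treg, 4.2 and 1.89 RPKM in CD4 Treg, and 224 and 271 RPKM in CD49lo. Of the 16 tested myeloid genes, 14 were not called between CD8 Treg and CD49lo. The part that RNA of such cells had in the class II results was not tested. In bulk RNA, fewer cells of a type and less RNA per cell cannot be told apart.

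**Figure D3:**
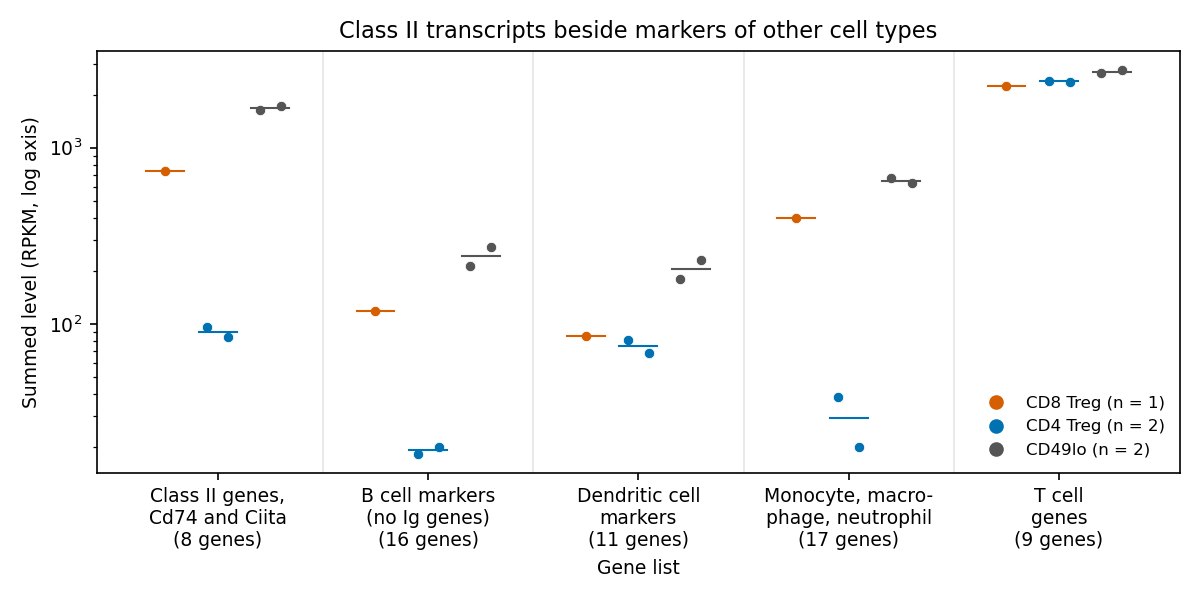
Summed RPKM (log axis) of the 8 class II pathway genes, of 3 marker lists of other cell types and of 9 T cell genes in each library, with CD8 Treg (n = 1), CD4 Treg (n = 2) and CD49lo (n = 2) from left to right and short lines at group means. All 3 marker sums and the class II sum share the order CD4 Treg, CD8 Treg, CD49lo from low to high, while the T cell sums lie between 2245 and 2761 RPKM.

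Marker by marker, CD4 Treg had lower levels than CD49lo of 17 of 18 B cell genes, 0 were called in CD8 Treg against CD49lo and 15 were higher in CD8 Treg than in CD4 Treg. Of 16 tested myeloid genes the counts were 14 lower, then 2 lower, then 13 higher and 1 lower in the same order of comparisons. Of 11 dendritic cell genes they were 8 lower, 3 lower and 2 higher. Of 6 NK cell genes they were 6 lower, 0 called and 5 higher. Of 3 tested plasma cell genes they were 2 lower, 0 called, and 1 higher with 1 lower. Over all tested genes 12.8% were called lower in the first comparison and 3.59% in the second. In the third, 8.51% were called higher and 8.35% lower. The exception among B cell genes was Ighm, at 285 RPKM in CD8 Treg, 444 and 521 RPKM in CD4 Treg, and 518 and 336 RPKM in CD49lo.

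The defining B cell markers reported are Cd79a, Ms4a1 and Pax5. Cd79a, a chain of the B cell receptor complex, was at 18.6 RPKM in CD8 Treg, 0.775 and 1.14 RPKM in CD4 Treg, and 29.2 and 46.9 RPKM in CD49lo. Ms4a1, which encodes CD20, was at 10.9 RPKM in CD8 Treg, 0.891 and 0.12 RPKM in CD4 Treg, and 19.1 and 35.3 RPKM in CD49lo. Pax5, the B lineage factor, was at 4.48 RPKM in CD8 Treg, 0.299 and 0.455 RPKM in CD4 Treg, and 14.5 and 17.3 RPKM in CD49lo. All 3 together held 413 reads in CD8 Treg, 27 and 15 in CD4 Treg, and 1041 and 1345 in CD49lo. These 3 markers were thus present in the CD8 Treg and CD49lo libraries and low in CD4 Treg. Other genes of the B cell list were higher than these 3 per length there, with Ighm as given above, Igkc at 49.9 and 27.3 RPKM and Cd79b at 6.08 and 9.12 RPKM in CD4 Treg. In the other libraries Igkc was at 848 RPKM (CD8 Treg) and 1514 and 1322 RPKM (CD49lo). Cd79b was at 16.7 RPKM in CD8 Treg and 37.0 and 39.4 RPKM in CD49lo. Unlike Ighm, both were lower in CD4 Treg than in CD49lo by limma (Igkc -5.21 ± 0.24, adjusted p = 1.51e-06).

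Of the 4 defining myeloid markers, Csf1r, the macrophage growth factor receptor, was at 20 RPKM in CD8 Treg, 1.95 and 0.195 RPKM in CD4 Treg, and 26.3 and 29.7 RPKM in CD49lo. C1qa, a complement gene of tissue macrophages, was at 32.1 RPKM in CD8 Treg, 3.88 and 4.24 RPKM in CD4 Treg, and 22.1 and 31.6 RPKM in CD49lo. Adgre1 was at 6.34 RPKM in CD8 Treg, 0.348 and 0.113 RPKM in CD4 Treg, and 6.68 and 8.54 RPKM in CD49lo. Ly6g, a neutrophil marker, was at 0 in every library but CD49lo replicate 1 (1.02 RPKM). All 4 summed to 58.4 RPKM in CD8 Treg, 6.18 and 4.55 RPKM in CD4 Treg, and 56.1 and 69.8 RPKM in CD49lo. CD8 Treg lay inside the CD49lo range for this sum and below it for the class II sum.

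Siglech, a defining marker of plasmacytoid dendritic cells, was at 1.14 RPKM in CD8 Treg, 0.21 and 0 RPKM in CD4 Treg, and 11.3 and 11.5 RPKM in CD49lo. Clec9a was at 0 in CD8 Treg, 0.049 and 0.223 RPKM in CD4 Treg, and 1.09 and 1.62 RPKM in CD49lo. Xcr1 was at 0.111 RPKM in CD8 Treg, 0 in both CD4 Treg libraries, and 0.753 and 0.616 RPKM in CD49lo. Zbtb46 lay between 0.434 and 0.879 RPKM in all 5 libraries.

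Set against the summed defining B cell markers of the same library, the 8 genes separated again. The summed classical chains were at 9.54 RPKM per RPKM of those markers in CD8 Treg, 7.61 and 4.29 in CD4 Treg, and 12.8 and 8.52 in CD49lo. For Cd74 the ratio was 10.9 in CD8 Treg, 26.2 and 28.9 in CD4 Treg, and 12.2 and 8.01 in CD49lo. H2-DMa gave 0.37 in CD8 Treg, 6.28 and 8.36 in CD4 Treg, and 0.282 and 0.233 in CD49lo. H2-Ob likewise gave 0.445 in CD8 Treg, 8.54 and 7.24 in CD4 Treg, and 0.303 and 0.218 in CD49lo. H2-DMb1 gave 0.124 in CD8 Treg, 0.409 and 0.306 in CD4 Treg, and 0.213 and 0.15 in CD49lo, with few reads in CD4 Treg. For Ciita it was 0.183 in CD8 Treg, 0.0312 and 0.0614 in CD4 Treg, and 0.267 and 0.157 in CD49lo. Relative to these 3 markers, CD4 Treg thus held less of the summed classical chains and of Ciita, and more Cd74, H2-DMb1, H2-DMa and H2-Ob, than the other libraries. Of the single chains, H2-Ab1 was lower in both CD4 Treg libraries, at 4.61 in CD8 Treg, 2.51 and 1.51 in CD4 Treg, and 6.2 and 4.0 in CD49lo. H2-Aa (2.92 in CD8 Treg, 2.61 and 1.23 in CD4 Treg, 3.55 and 2.45 in CD49lo) and H2-Eb1 (2.01 in CD8 Treg, 2.49 and 1.54 in CD4 Treg, 3.08 and 2.08 in CD49lo) overlapped between groups. The CD4 Treg ratios rest on 27 and 15 marker reads.

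**Figure D4:**
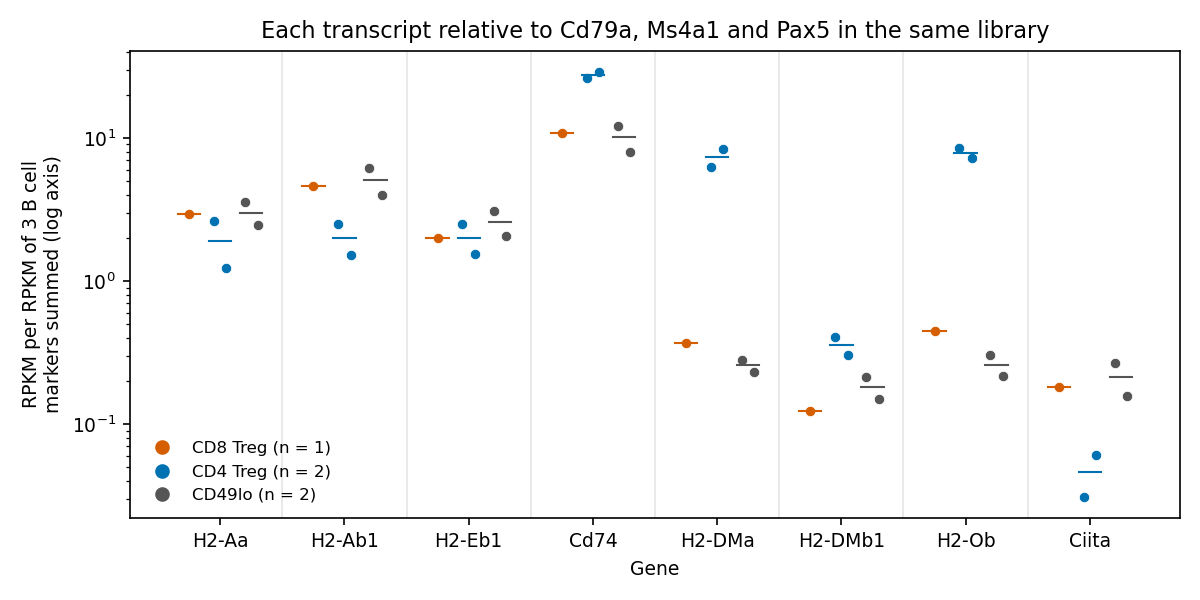
RPKM of each of the 8 genes divided by the summed RPKM of Cd79a, Ms4a1 and Pax5 in the same library (log axis), with CD8 Treg (n = 1), CD4 Treg (n = 2) and CD49lo (n = 2) from left to right and short lines at group means. CD4 Treg stands above the other libraries for Cd74 (26.2 and 28.9), H2-DMa (6.28 and 8.36) and H2-Ob (8.54 and 7.24), and below them for Ciita (0.0312 and 0.0614).

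With the longer list of 16 B cell markers as the denominator, the Cd74 and H2-DMb1 ratios in CD4 Treg no longer stood above the other libraries. The H2-DMb1 ratios overlapped between groups, and the Cd74 ratios in CD4 Treg were slightly below those of the other libraries. H2-DMb1 gave 0.0359 in CD8 Treg, 0.0437 and 0.026 in CD4 Treg, and 0.0628 and 0.0547 in CD49lo. For Cd74 the ratio was 3.14 in CD8 Treg, 2.80 and 2.45 in CD4 Treg, and 3.58 and 2.91 in CD49lo. The classical chains were then lower per marker in CD4 Treg (0.813 and 0.363, against 2.76 in CD8 Treg, and 3.78 and 3.10 in CD49lo). H2-DMa stayed higher, at 0.107 in CD8 Treg, 0.671 and 0.709 in CD4 Treg, and 0.083 and 0.0847 in CD49lo. The 2 denominators differ most in CD4 Treg, where Cd79b alone was at 6.08 and 9.12 RPKM. H2-DMa and H2-Ob together made up 3.79% of the summed RPKM of the 8 genes in CD8 Treg, 30.2% and 31.8% in CD4 Treg, and 2.24% and 2.61% in CD49lo.

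Likeness was measured among 9057 other protein-coding genes with at least 10 RPM in their highest library. Immunoglobulin genes, T cell receptor genes, predicted genes and pseudogenes were left out beforehand, so Igkc, for one, could not be named as near. The measure was the root mean square difference between centred log2(scaled RPKM + 0.5) profiles over the 5 libraries. The genes nearest to the mean profile of the 8 genes were Emr4 (0.055), Pirb (0.095), Ccr2 (0.121), Dock5 (0.13), Blk (0.139), Itgam (0.151), Tnfrsf13c (0.168), Cd180 (0.199), Spib (0.207) and Mef2c (0.209). Blk and Spib of these are on the B cell list. The mean averages both patterns of the 8 genes and so lies between them. Only Cd74 had a gene of this list as its own nearest. Emr4 was at 4.06 RPKM in CD8 Treg, 0.185 and 0.0526 RPKM in CD4 Treg, and 9.15 and 9.16 RPKM in CD49lo. In both CD4 Treg libraries Emr4, Pirb, Blk, Itgam, Cd180, Spib and Mef2c were below the 0.5 RPKM added. That value makes their differences smaller, whereas Cd74, at 51.6 and 49.4 RPKM in CD4 Treg, is little changed by it. The distance of 0.079 between Emr4 and Cd74 therefore depends on the value added. Ccr2, a chemokine receptor of monocytes and effector T cells, was at 28.4 RPKM in CD8 Treg, 5.26 and 3.63 RPKM in CD4 Treg, and 63.5 and 82.3 RPKM in CD49lo. Taken gene by gene, the nearest was Lyz2, the lysozyme of myeloid cells, for H2-Aa (0.22) and H2-Ab1 (0.33), Pld4 for H2-Eb1 (0.245), Emr4 for Cd74 (0.079), Tifab for H2-DMb1 (0.121) and Plbd1 for Ciita (0.219). For the other pattern it was Elmod2 for H2-DMa (0.04) and Fbxw7 for H2-Ob (0.034).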

How the data were processed

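Values were deposited by the authors as RPKM per gene for 5 libraries of total RNA from sorted cells, in a table named as counts. Per the submitters' processing notes, CASAVA, STAR and the mm10 genome were used, with no versions given. Every value was a whole number of reads (100% within 0.02) once multiplied by gene length, which recovered the reads and depth. Scaling used trimmed-mean (TMM) factors of 0.935 to 1.038, computed from those reads. A gene was tested if at least 1 library held 10 reads, expressed at median depth, and all libraries together held 15, which left 13298. A linear model over 3 groups, with 2 residual degrees of freedom and a prior following mean log2 RPM, was fitted to log2(scaled RPKM + 0.5) with limma 3.58.1 in R 4.3.3 and tested on simulated data. CD8 Treg has no replicate, so its spread is taken from the other groups. Adjusted p-values are two-sided Benjamini-Hochberg values over all genes tested. The genes and lists were chosen with earlier results of these data known. The rule for names took all 8 genes, the other class II genes, up to 4 genes of each further pathway list with the smallest p in CD4 Treg against CD49lo plus those moving against their list, the defining markers, and the nearest genes by profile. The defining markers of the NK cell, plasma cell and T cell lists are not named in the text. Dexi, Ighm, Igkc, Cd79b, Cst3, Cebpa and the check genes Xist, Ddx3y, Foxp3 and Cd8a were added after their values were seen. Marchf1, Marchf8, Adgre1 and Jchain carry other names in the table and were matched by identifier. Of the B cell list and of the list of genes acting on Ciita, 1 gene each is not reported here and was left out of every count and sum. Ighd of the B cell list was not matched in the table. Raw reads are not analysed here.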

Additional observations from a re-analysis of the deposited data

How the results depend on the processing

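Signs of called genes did not reverse in any of the 104, 96 and 96 values of the 8 genes (CD4 Treg over CD49lo, CD8 Treg over CD49lo, CD8 Treg over CD4 Treg). In that order 8, 14 and 15 values lost their call and 0, 5 and 0 gained one, and 3 values of H2-DMa and H2-Ob, not called, had the other sign in the last comparison. Of the 8 genes, the number called in CD8 Treg against CD49lo was 1 without a filter, 1 with a filter of 1 RPKM, 1 with a prior on mean log2 RPKM, 5 by limma-voom, 6 with the 2 groups alone and 0 to 3 with 1 library left out, against 3. Leaving out a library gave 2 to 6 in CD4 Treg against CD49lo and 1 to 6 in CD8 Treg against CD4 Treg, against 6 in each. Over all genes, CD4 Treg against CD49lo gave 704 calls without a filter and 437 to 1457 with 1 library left out. CD8 Treg against CD49lo gave 355 with the 1 RPKM filter, 365 with the RPKM prior and 0 to 199 with 1 library left out. The 0 by limma came without CD49lo replicate 1, where 2209 genes had an unadjusted p under 0.05; limma-voom over all 5 libraries called 689. CD8 Treg against CD4 Treg gave 1277 without a filter, 1071 with the 2 groups alone and 155 to 967 with 1 library left out. Fits without a library, the 2-group fits with CD8 Treg and the fit with a replicate block have 1 residual degree of freedom. The cause of the other differences was not tested. With the replicate number as a block over the 4 CD4 Treg and CD49lo libraries, 6 of the 8 genes and 3577 of all genes were called. By limma that fit gave H2-Ab1 an adjusted p of 1.8e-246 from 4 libraries, so its counts are not taken as a check. Deviations of same-numbered libraries correlated at -0.0202 and there are 2 pairs, so the replicate numbers are not taken to pair the libraries. In CD4 Treg, Ciita (2 and 3 reads) and H2-DMb1 (7 and 4 reads) were limited by depth.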
